A study of Mus musculus with 6 samples.

Results

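The 38 genes described here encode the machinery of DNA replication and of mitosis, and were read in CD11b+ cells sorted from mouse spleen. They were chosen as a fixed set of symbols, of which 18 act at the G1/S transition and in S phase and 20 act in G2 and mitosis. All 38 were found by symbol among the 55335 genes of the count table. The study compared wild-type mice with myocardial infarction (MI, 3 libraries) with wild-type mice that had MI and renal denervation, in which the nerve supply of the kidney is destroyed (MI+RDN, 3 libraries). Every animal therefore carried an infarct, and no group without one was analysed here. Cells were taken from the spleen by flow cytometry on CD11b, an integrin of myeloid cells. The time after infarction, the age of the mice, and whether mice were pooled for a replicate are not given in the labels. P-values set the difference between the groups against the spread of these 6 libraries within groups, which may not be the spread between mice.

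A cell that commits to division first loads the MCM helicase onto replication origins and then fires those origins in S phase. Transcription factors of the E2F family drive the genes of that step. Genes of G2 and mitosis are switched on later, through complexes that bind a short promoter element named the cell cycle genes homology region (CHR), often beside CCAAT boxes. In the granulocyte lineage, precursors divide in bone marrow and, under stress, in the spleen, whereas mature neutrophils have left the cycle. Division of other myeloid cells of the spleen was not tested.

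Promoters of 4 members are shown because they hold examples of the elements counted below, the CHR alone (Cdc20 and Kif11), E2F cores alone (Mcm6) and both (Cdk1). The sequences are from RefSeq on build GRCm38.p6, older than the GRCm39 build of the counts, and each runs 5′ to 3′ on the gene's strand from 150 bases before the annotated start site to the base before it. Capitals mark matches to the CHR or to an E2F core on either strand. The CHR was searched as TTTGAA and in a variant form, the palindrome TTCGAA, which was counted once per position. The E2F core was searched as TTCCCGC and as the related core TTGGCGC. The search also took the close variant spelled TTCGCGC and the further variant written TTGCCGC. Overlapping E2F matches on opposite strands form longer runs in Mcm6.
Cdc20 (chr4:118437344-118437493, minus strand): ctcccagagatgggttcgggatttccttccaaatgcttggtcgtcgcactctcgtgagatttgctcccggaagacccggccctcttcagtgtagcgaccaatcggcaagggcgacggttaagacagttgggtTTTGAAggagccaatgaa
Kif11 (chr19:37376232-37376381, plus strand): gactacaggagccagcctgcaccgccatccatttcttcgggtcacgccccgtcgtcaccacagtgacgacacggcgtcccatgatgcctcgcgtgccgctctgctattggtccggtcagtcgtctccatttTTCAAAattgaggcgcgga
Cdk1 (chr10:69352913-69353062, minus strand): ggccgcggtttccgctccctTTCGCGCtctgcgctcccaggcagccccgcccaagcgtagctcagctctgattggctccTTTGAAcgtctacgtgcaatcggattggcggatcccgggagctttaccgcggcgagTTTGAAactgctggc
Mcm6 (chr1:128359706-128359855, minus strand): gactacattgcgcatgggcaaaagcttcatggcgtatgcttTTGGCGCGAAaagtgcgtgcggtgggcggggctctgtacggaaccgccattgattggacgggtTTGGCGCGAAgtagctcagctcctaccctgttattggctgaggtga

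Cdc20 activates the anaphase-promoting complex, and Kif11 is the motor that separates the spindle poles. Both have a CHR match within the last 20 bases before the start. Cdk1, the kinase of mitotic entry, has CHR matches and an E2F match. Mcm6, a helicase subunit, has E2F matches and no CHR match. In windows of 250 bases before to 50 after the start, a CHR match was present in 13 of the 17 G2/M genes with a promoter in the RefSeq table and in 3 of the 15 such G1/S genes, against 21.7% of all 27025 genes in that table. An E2F match was present in 9 of 15 G1/S genes and in 3 of 17 G2/M genes, against 10.9% of all genes. CCAAT, which overlaps an E2F match in some windows, was present in 15 of 17 G2/M genes, 10 of 15 G1/S genes and 41.1% of all genes. Mcm4, Gins2, Ccne2, Ccna2, Aurkb and Tpx2 were not matched. A match describes letters in a window, and binding was not measured.

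**Figure D1:**
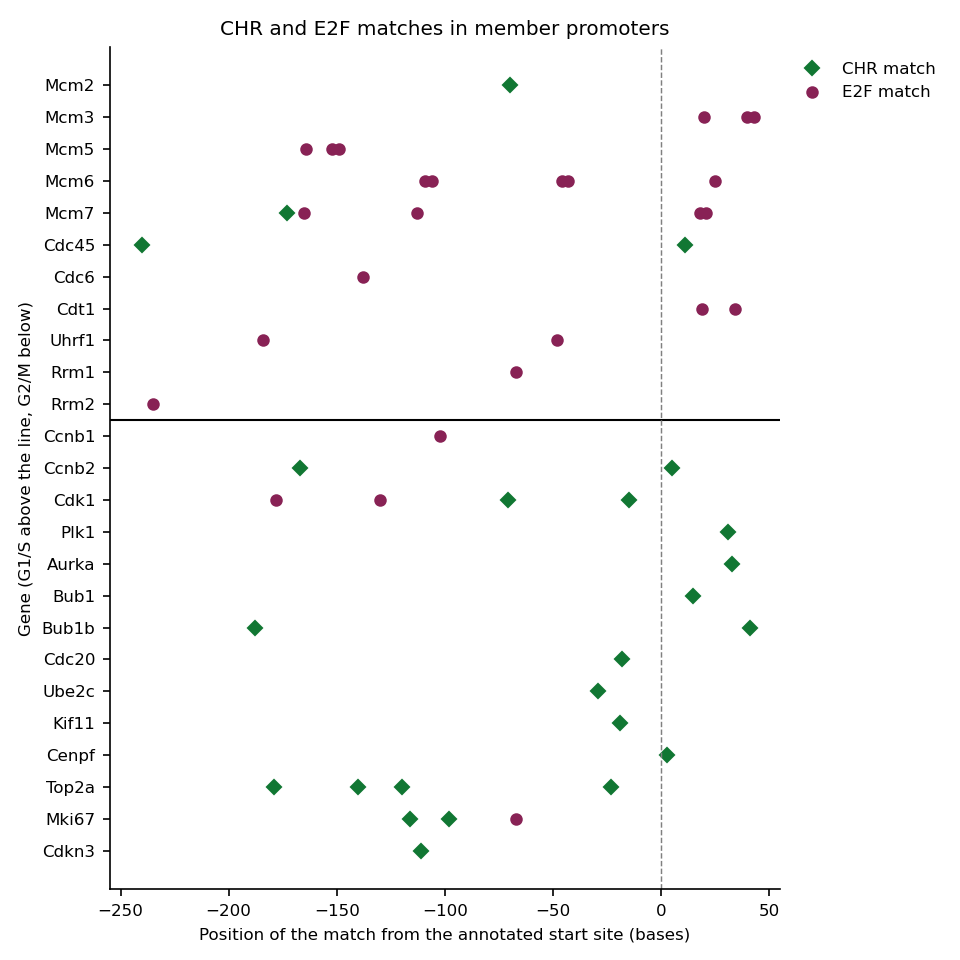
Positions of CHR matches (diamonds) and E2F matches (circles) in member promoters, in bases from the annotated start site (dashed line), with G1/S genes above the line and G2/M genes below it. CHR matches lie in 13 G2/M genes and 3 G1/S genes, and E2F matches in 9 G1/S genes and 3 G2/M genes; genes with no match are not drawn, and genes with more than 1 annotated start have all their windows drawn together.

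Library totals ranged from 21663440 to 28013900 counts. Each of the 38 genes had between 51 and 9020 counts in every library, so no member was limited by missing counts, and all 38 passed the filter on low counts that left 14849 genes. Itgam, which encodes CD11b, stood at 1011 to 1301 CPM in MI and at 1489 to 1666 CPM in MI+RDN. CPM values are library counts scaled to a common depth with TMM factors. B cell markers were present at a summed 645 to 938 CPM in MI and 337 to 527 CPM in MI+RDN, and T cell markers at 106 to 133 and 43.5 to 65.0 CPM. All 11 members of each list had a negative log2 fold change, and 0 B cell and 2 T cell markers passed by edgeR, against 1.01% of all genes. DESeq2 called 11 and 8 of them, against 8.02% of all genes. By limma-voom 0 and 1 were called, against 111 of all 14849 genes. An unadjusted edgeR p under 0.05 was found for 11 and 10, against 19.9% of all genes. In bulk RNA, fewer cells of a type and less RNA per cell cannot be told apart.

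Between MI+RDN and MI, by edgeR, 0 of the 38 cell cycle genes passed an adjusted p of 0.05, against 1.01% of all genes tested (0.296% higher and 0.714% lower). At an unadjusted p under 0.05 there was 1 member, Cdc6, against 19.9% of all genes. DESeq2's Wald test called 1 member, again Cdc6, where it called 8.02% of all genes (3.85% higher). By limma-voom 0 members were called, against 111 of all 14849 genes. The fold changes nevertheless pointed one way, with 37 of 38 above 0, against 51.0% of all genes. The median log2 fold change was 0.28 for the G1/S genes and 0.69 for the G2/M genes, against 0.0080 for all genes tested.

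That direction rested on 1 library. MI+RDN replicate 2 held the highest level of 17 of 18 G1/S genes and of 20 of 20 G2/M genes, and it held the highest level of 19.8% of all genes tested. Gins2 was the exception, with its highest level in MI replicate 3. Without MI+RDN replicate 2, the median log2 fold change was -0.13 for G1/S and 0.018 for G2/M, and 15 of 38 members were above 0, against 47.0% of all genes. In that fit 0 members passed by edgeR and 1 had an unadjusted p under 0.05, against 0.438% (0.196% higher) and 21.4% of all genes. Without MI+RDN replicate 3, 19 members had an unadjusted p under 0.05, against 17.4% of all genes, and 0 passed the adjusted threshold.

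**Figure D2:**
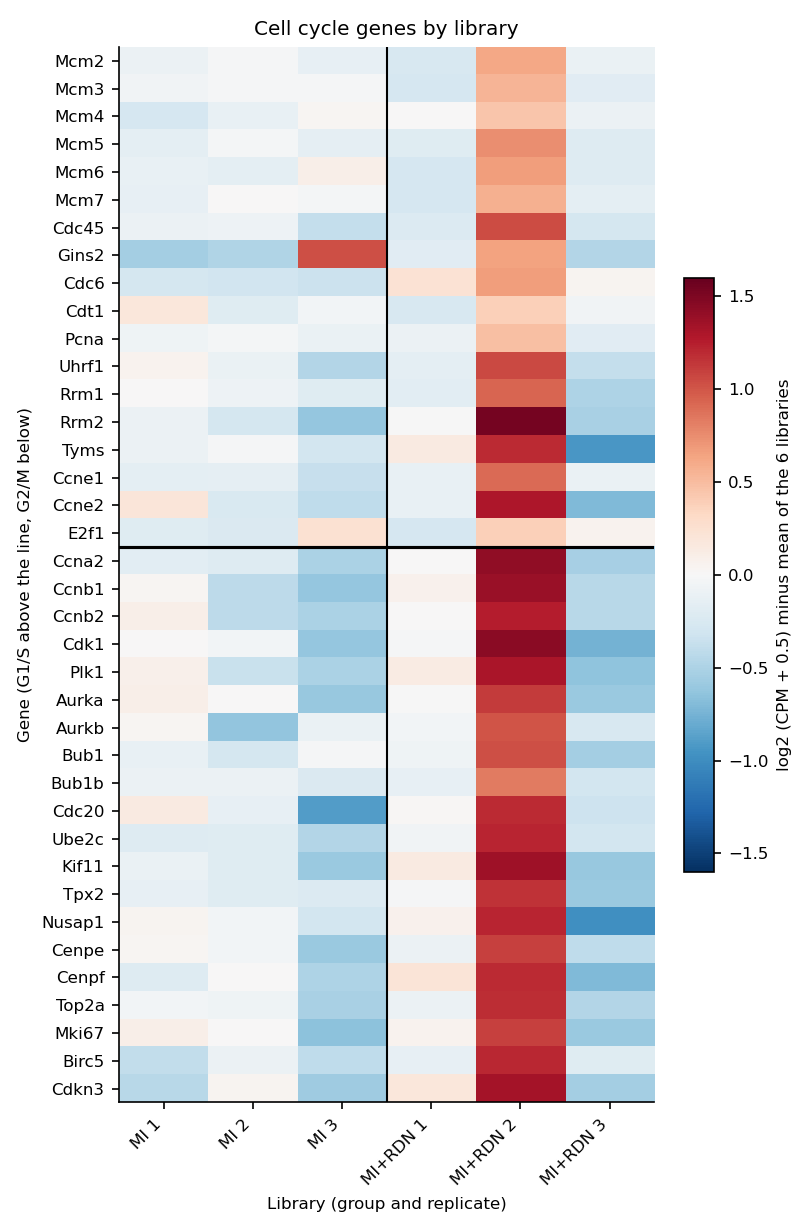
Each row is a gene, each column a library, and colour is log2 (CPM + 0.5) minus the mean of the 6 libraries; the horizontal line parts G1/S genes from G2/M genes and the vertical line parts MI from MI+RDN. MI+RDN replicate 2 is the highest library in 37 of the 38 rows, with a mean of 0.78 above the horizontal line and 1.20 below it.

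The 2 phases did not stand out equally in that library. The 38 genes together took 0.190% of its counts and 0.0706% to 0.0973% of the counts of the other 5 libraries. The G1/S genes summed to 758 CPM in MI+RDN replicate 2, and to 388 to 426 CPM elsewhere. The G2/M genes summed to 1183 CPM there, and to 360 to 522 CPM elsewhere. As the mean over genes of log2 (CPM + 0.5) relative to the 6 libraries, MI+RDN replicate 2 stood at 0.78 for G1/S and 1.20 for G2/M, so the mitotic genes stood 0.42 further out.

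Among the other 5 libraries the G1/S genes were nearly level, with means from -0.28 to -0.11, and the G2/M genes were spread more widely, from -0.51 to 0.0096. MI replicate 3 and MI+RDN replicate 3, one from each group, were the low libraries for mitosis, at -0.47 and -0.51, and together held the lowest level of 19 of the 20 G2/M genes. MI replicates 1 and 2 stood at -0.064 and -0.17, and MI+RDN replicate 1 at 0.0096. The difference of G2/M from G1/S means was -0.35 in MI replicate 3 and -0.23 in MI+RDN replicate 3. It was 0.044 and -0.026 in MI replicates 1 and 2, and 0.15 in MI+RDN replicate 1. The groups overlapped in both phases and in their difference, and no test was made of these means because the genes were chosen as a set.

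**Figure D3:**
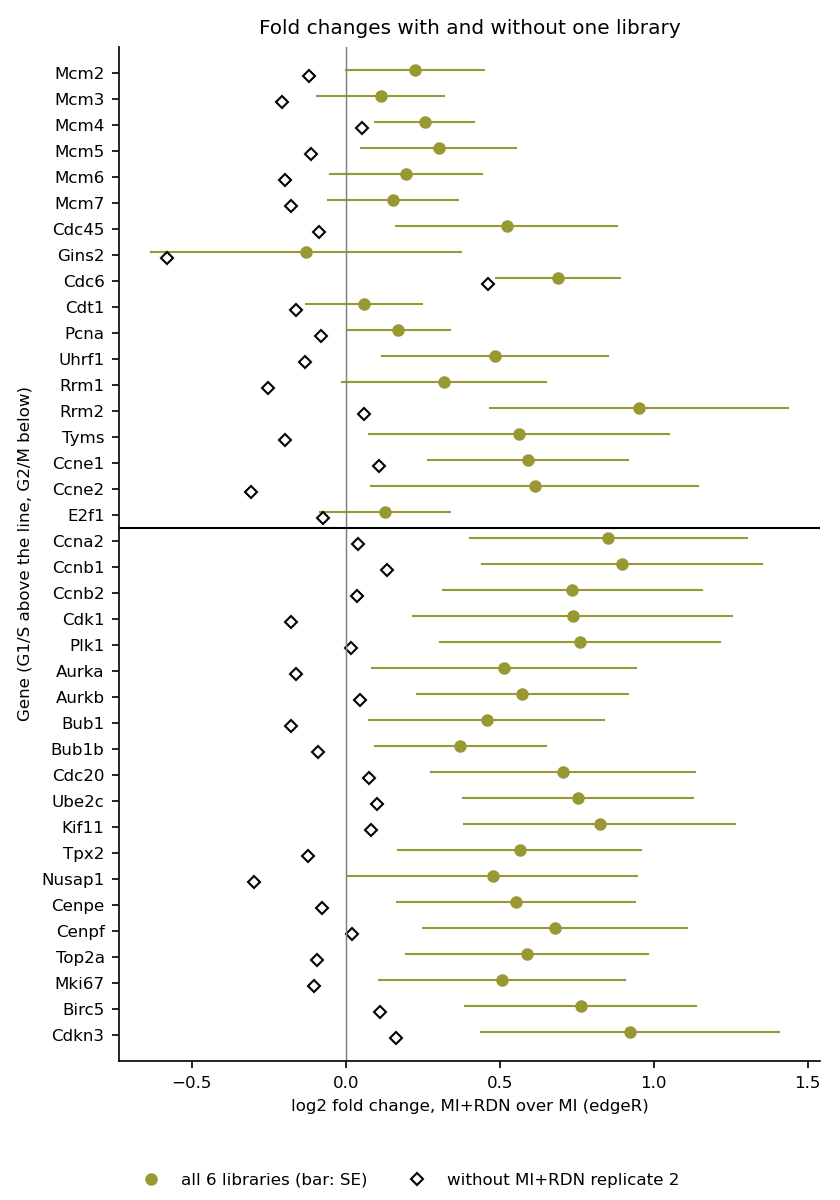
Log2 fold change of MI+RDN over MI by edgeR for each gene, with all 6 libraries (filled circles, bars of 1 SE) and without MI+RDN replicate 2 (open diamonds). With all libraries 37 of 38 values lie above 0, and without that library 15 do, with Cdc6 the furthest above 0 at 0.46 and Gins2 the furthest below at -0.58.

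The helicase genes gave small differences. Mcm2 to Mcm7 form the ring that unwinds DNA, and their log2 fold changes lay between 0.11 and 0.30. Mcm2 stood at 20.2, 21.3 and 19.7 CPM in MI replicates 1 to 3 and at 18.0, 33.5 and 19.99 CPM in MI+RDN replicates 1 to 3. Without the second MI+RDN library those values fill 1 narrow band. Mcm3 stood at 35.9, 37.0 and 36.8 CPM in MI and at 30.9, 54.7 and 33.1 CPM in MI+RDN. Its log2 fold change of 0.11 (SE 0.21, edgeR adjusted p = 0.798) was among the lowest 3 of the set. Cdt1, the loader that brings the ring to origins, stood at 19.2, 14.8 and 16.4 CPM in MI and at 14.1, 22.1 and 16.2 CPM in MI+RDN, with overlapping groups and a log2 fold change of 0.060 (SE 0.19, edgeR adjusted p = 0.891). Cdc45, which joins the ring to make the active helicase, had a log2 fold change of 0.52, and MI+RDN replicate 2 was 2.45-fold above the mean of the other 5 libraries.

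Gins2, another part of the active helicase, departed from the rest. It stood at 4.004, 4.19 and 12.9 CPM in MI and at 5.31, 9.75 and 4.26 CPM in MI+RDN. Its single high MI library set the sign, with a log2 fold change of -0.13 (SE 0.50, edgeR adjusted p = 0.912) that became 0.65 without MI replicate 3. No other member had its highest level in that library.

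Cdc6, the ATPase that loads the helicase with Cdt1, was the member nearest to the threshold. It stood at 5.88, 5.77 and 5.57 CPM in MI and at 8.54, 11.8 and 7.44 CPM in MI+RDN. The MI libraries lay close to each other, and every MI+RDN library lay above them. Groups that did not overlap in this direction were found for 2 of 38 members, against 12.4% of all genes, and in the other direction for 0 members, against 13.7%. The log2 fold change of Cdc6 was 0.69 (SE 0.20, edgeR adjusted p = 0.125), and 0.46 with an adjusted p of 0.195 by edgeR without MI+RDN replicate 2. DESeq2's Wald test gave an adjusted p of 0.0448, the lowest over the alternatives, which otherwise reached from 0.117 to 0.308. The other gene without overlap was Ccne1, a cyclin that activates CDK2 at the G1/S boundary. It stood at 4.004, 4.06 and 3.40 CPM in MI and at 4.16, 8.91 and 4.17 CPM in MI+RDN, so that 2 MI+RDN libraries cleared the highest MI library by a small margin (log2 fold change 0.59, SE 0.33, edgeR adjusted p = 0.356).

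Ccne2, the paralog of Ccne1, stood at 4.52, 3.20 and 2.80 CPM in MI and at 3.54, 10.3 and 2.19 CPM in MI+RDN. Its log2 fold change of 0.61 (SE 0.53, edgeR adjusted p = 0.558) turned to -0.31 without MI+RDN replicate 2. E2f1, a transcription factor that activates G1/S genes, stood at 11.5, 11.2 and 15.8 CPM in MI and at 10.9, 17.4 and 13.8 CPM in MI+RDN. Its groups overlapped and its excess in MI+RDN replicate 2 was small, 1.37-fold over the mean of the other 5 libraries. Pcna, the sliding clamp of DNA polymerases, stood at 82.1, 84.1 and 80.0 CPM in MI and at 80.8, 120.0 and 76.2 CPM in MI+RDN (log2 fold change 0.17, SE 0.17, edgeR adjusted p = 0.610). Uhrf1, which carries DNA methylation through replication, was 2.42-fold higher in MI+RDN replicate 2 than the mean of the other 5 libraries.

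Enzymes of nucleotide supply included the member with the highest value. Rrm2, the regulated subunit of ribonucleotide reductase, stood at 25.3, 22.2 and 17.5 CPM in MI and at 26.9, 79.7 and 18.7 CPM in MI+RDN. It had the largest log2 fold change of all 38 genes, 0.95 (SE 0.48, edgeR adjusted p = 0.319), and the value was 0.060 without MI+RDN replicate 2. In that library it stood 3.60-fold above the mean of the other 5 libraries. Rrm1, the constant subunit, stood 2.17-fold above that mean, and the thymidylate synthase gene Tyms had a log2 fold change of 0.56.

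Mitotic cyclins and their kinase made up the role with the highest median log2 fold change, 0.85 over 5 genes, which was 0.039 without MI+RDN replicate 2. Ccnb1, the cyclin that activates CDK1 for mitosis, stood at 10.4, 7.395 and 6.43 CPM in MI and at 10.6, 27.0 and 7.31 CPM in MI+RDN. MI+RDN replicates 1 and 3 fell inside or just above the range of MI, and the log2 fold change was 0.90 (SE 0.46, edgeR adjusted p = 0.318). Ccna2, the cyclin of S and G2 phase, stood at 20.2, 19.6 and 15.8 CPM in MI and at 22.9, 61.7 and 15.7 CPM in MI+RDN (log2 fold change 0.85, SE 0.45, edgeR adjusted p = 0.337). Cdkn3, a phosphatase of CDKs, stood at 3.19, 4.69 and 2.91 CPM in MI and at 5.20, 12.2 and 2.97 CPM in MI+RDN (log2 fold change 0.92, SE 0.48, edgeR adjusted p = 0.335). All 3 of these had their lowest or nearly lowest levels in MI replicate 3 and MI+RDN replicate 3. Ccnb2 and Cdk1 had log2 fold changes of 0.73 and 0.74.

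For the 6 mitotic kinase and spindle checkpoint genes the median was 0.54 on the log2 scale, and -0.037 without MI+RDN replicate 2. Plk1, the polo-like kinase of mitotic entry and exit, stood at 13.5, 9.88 and 8.86 CPM in MI and at 14.05, 32.5 and 7.99 CPM in MI+RDN (log2 fold change 0.76, SE 0.46, edgeR adjusted p = 0.393). The checkpoint kinase gene Bub1 stood at 8.31, 7.395 and 8.97 CPM in MI and at 8.66, 19.1 and 6.06 CPM in MI+RDN. Bub1b, which encodes BubR1, stood at 23.5, 23.3 and 21.3 CPM in MI and at 22.8, 44.8 and 20.3 CPM in MI+RDN, and with 0.37 (SE 0.28, edgeR adjusted p = 0.492) it had the smallest log2 fold change of the G2/M set. In each of these genes MI+RDN replicate 2 was the single high library. Aurka and Aurkb, the Aurora kinases of the spindle poles and of the centromere, had log2 fold changes of 0.51 and 0.57, and Birc5, the survivin partner of Aurora B, one of 0.76.

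Cdc20 and Ube2c, which work with the anaphase-promoting complex, had log2 fold changes of 0.70 and 0.76, and 0.075 and 0.10 without MI+RDN replicate 2. Spindle and kinetochore genes ranged from 0.48 for Nusap1 to 0.82 for Kif11, with Tpx2, Cenpe and Cenpf between them. Nusap1, a microtubule-bundling protein of the spindle, stood at 18.9, 17.8 and 14.9 CPM in MI and at 19.3, 43.3 and 9.07 CPM in MI+RDN. It was the G2/M gene with the lowest value once MI+RDN replicate 2 was left out, a log2 fold change of -0.30. Top2a, the topoisomerase that untangles chromosomes, stood at 79.0, 77.7 and 56.6 CPM in MI and at 76.0, 185.5 and 58.8 CPM in MI+RDN (log2 fold change 0.59, SE 0.39, edgeR adjusted p = 0.442). Mki67, which encodes the proliferation antigen Ki-67, stood at 164, 155 and 97.2 CPM in MI and at 160.0, 329.5 and 102 CPM in MI+RDN (log2 fold change 0.51, SE 0.40, edgeR adjusted p = 0.513). Both genes had the same order of libraries in MI+RDN, and in both the MI mean lay within the range of MI+RDN. Every G2/M gene stood 2.01-fold to 3.34-fold above the mean of the other 5 libraries in MI+RDN replicate 2, whereas the G1/S genes stood 1.37-fold to 3.60-fold above it.

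**Figure D4:**
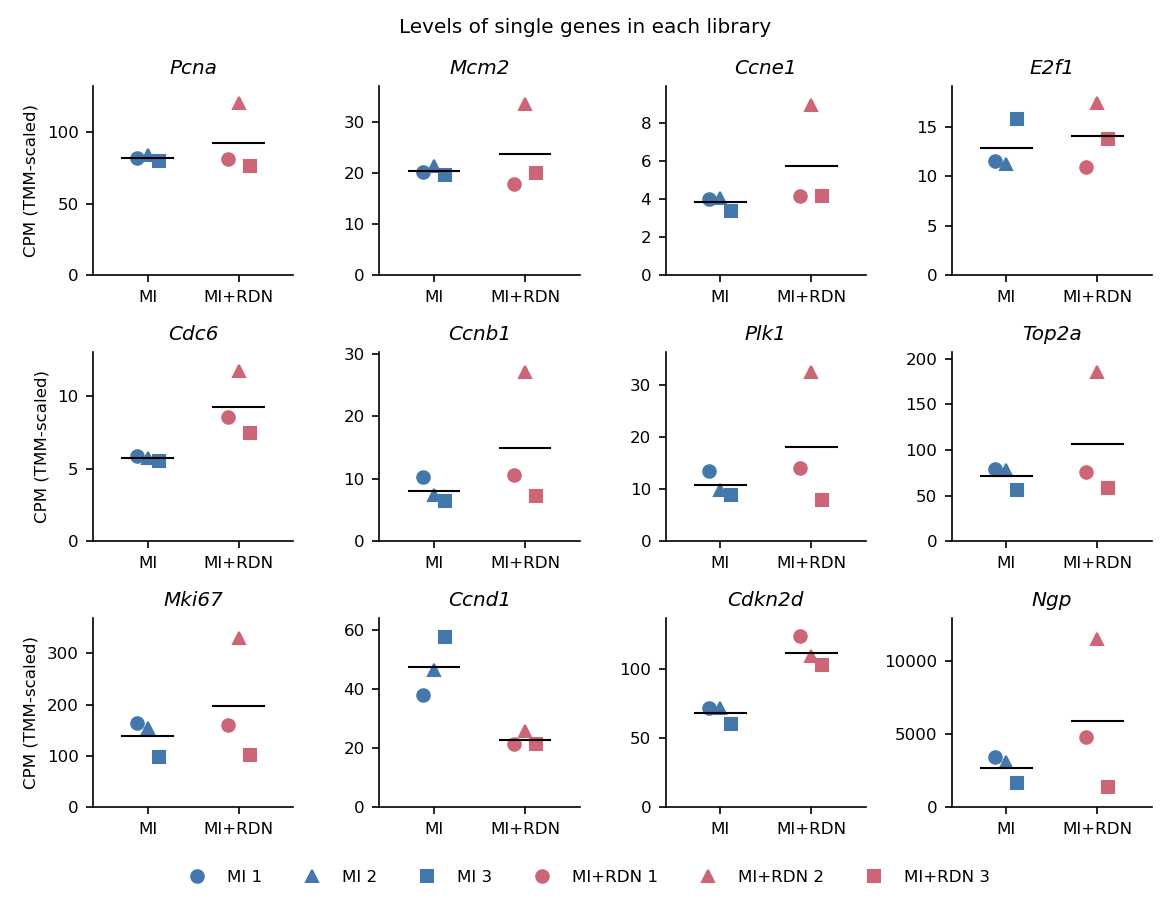
Levels of 12 genes in CPM, 1 point per library, with the group mean as a line; axes start at 0 and differ between panels. In Ccnb1, Plk1, Top2a, Mki67 and the granule gene Ngp the MI+RDN mean is lifted by replicate 2, whereas in Ccnd1 and Cdkn2d all MI+RDN libraries lie on one side of MI.

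Per kilobase of the longest annotated coding transcript, Pcna was the most abundant member in MI, at 54.1 CPM per kilobase. Mki67, Top2a and Mcm7 followed at 13.8, 13.6 and 13.5, values that lie closer together than the libraries do. Cenpf was the lowest, at 0.979 CPM per kilobase. Transcript lengths came from an annotation of the older build and do not show which isoform these cells use.

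Other replication and mitotic genes also had their highest levels mostly in MI+RDN replicate 2. Of 42 other DNA replication genes 0 passed by edgeR, against 1.01% of all genes, and the median log2 fold change was 0.18. Of 56 other mitotic genes 0 passed, against the same share, and the median was 0.55. These medians, with MI+RDN replicate 2 left out, were -0.039 and -0.052. That library was the highest in 36 of the 42 and 54 of the 56, against 19.8% of all genes. At an unadjusted p under 0.05 by edgeR there were 3 and 6 genes, against 19.9% of all genes. DESeq2 called 1 and 2, against 8.02% of all genes, and limma-voom called 0 in both. The replication genes with the lowest p were Orc2, an origin recognition subunit, and Mcm10, a helicase cofactor. Orc2 stood at 13.4, 14.7 and 16.0 CPM in MI and at 10.2, 10.7 and 10.9 CPM in MI+RDN (log2 fold change -0.47, edgeR adjusted p = 0.103). Mcm10 stood at 6.13, 7.801 and 7.21 CPM in MI and at 11.4, 15.5 and 9.07 CPM in MI+RDN (log2 fold change 0.77, edgeR adjusted p = 0.119). These genes were picked for their low p, and over the list of 42 the groups did not overlap in 5 genes upward and 1 downward, against 12.4% and 13.7% of all genes. Among mitotic genes they were Cks2, a CDK-binding subunit, and Cdc25b, a phosphatase that activates CDK1, with log2 fold changes of 0.39 and 0.57 and edgeR adjusted p of 0.0991 and 0.101.

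Regulators of entry into and exit from the cycle gave the 2 genes of these lists that passed. Of 29 G1 cyclins, CDKs and E2F or DREAM regulators 0 rose and 1 fell by edgeR, against 0.296% and 0.714% of all genes, with a median of 0.049. DESeq2 called 4 of them and limma-voom 1, against 8.02% and 111 of all 14849 genes. An unadjusted edgeR p under 0.05 was found for 8, against 19.9% of all genes. The gene was Ccnd1, the D-type cyclin that partners CDK4 and CDK6. It stood at 38.04, 46.7 and 57.6 CPM in MI and at 21.3, 25.8 and 21.6 CPM in MI+RDN. The log2 fold change was -1.05 (SE 0.16, edgeR adjusted p = 0.0401). All 3 MI+RDN libraries lay below MI, and MI+RDN replicate 2 was among them.

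Of 18 CDK inhibitors and cell cycle exit genes 16 were tested. By edgeR 1 rose and 0 fell, against 0.296% and 0.714% of all genes. The median log2 fold change of the 16 was 0.27, and 0.10 without MI+RDN replicate 2. DESeq2 called 2 of them and limma-voom 1, against 8.02% and 111 of all 14849 genes. An unadjusted edgeR p under 0.05 was found for 7, against 19.9% of all genes. The gene was Cdkn2d, an inhibitor of CDK4 and CDK6 of the INK4 family. It stood at 71.9, 71.8 and 60.1 CPM in MI and at 123, 109 and 103 CPM in MI+RDN (log2 fold change 0.72, SE 0.11, edgeR adjusted p = 0.0401). Both calls were lost with any 1 library left out, at edgeR adjusted p from 0.0523 to 0.135 for Ccnd1 and from 0.0575 to 0.131 for Cdkn2d, with the sign kept in each of those fits. DESeq2's Wald test gave the lowest adjusted p over the alternatives, 2.25e-06 and 8.15e-06. They were also lost without a filter (0.0793 for both) and with the replicate number as a block (0.0538 and 0.0514).

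Markers of neutrophil precursors had their highest levels in the same library as the cell cycle genes. Of 13 granule genes 0 passed by edgeR and 3 had an unadjusted edgeR p under 0.05, against 1.01% and 19.9% of all genes. DESeq2 called 0 and limma-voom 0, against 8.02% and 111 of all 14849 genes. All 13 had their highest level in MI+RDN replicate 2, against 19.8% of all genes. Their summed level was 6133 to 10548 CPM in MI and 5413 to 30235 CPM in MI+RDN. Ngp, a granule protein of neutrophil precursors, stood at 3473, 3071 and 1640 CPM in MI and at 4784, 11481 and 1385 CPM in MI+RDN. As a mean over the list relative to the 6 libraries, MI+RDN replicate 2 stood at 1.75, and MI replicate 3 and MI+RDN replicate 3 were the lowest at -0.89 and -0.63. These are the libraries that were highest and lowest for the G2/M genes. No granule gene was at 0, and the median log2 fold change of the list was 1.11, or 0.18 without MI+RDN replicate 2. The part of these markers in the cell cycle values was not tested.

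Markers of other dividing cells were mixed. Erythroid precursor genes summed to 421 to 812 CPM in MI and 209 to 271 CPM in MI+RDN, with 209 in MI+RDN replicate 2, and 1 of 14 had its highest level there. The sum was carried by globin genes such as Hbb-bs, at 128 to 240.5 CPM in MI and 56.8 to 78.5 CPM in MI+RDN. Over the list 6 of 14 log2 fold changes were above 0, and the list means of MI replicate 3 (-0.10) and MI+RDN replicate 3 (-0.095) nearly coincided. By edgeR 0 of the 14 passed and 5 had an unadjusted p under 0.05, against 1.01% and 19.9% of all genes. DESeq2 called 5, against 8.02%, and limma-voom 0. The groups did not overlap in 6 genes downward and 0 upward, against 13.7% and 12.4% of all genes. Stem and progenitor genes summed to 311 to 357 CPM in MI and 264 to 337 CPM in MI+RDN, with 4 of 9 highest in MI+RDN replicate 2 and Mycn at 0 counts in all libraries. As a list mean they stood highest in MI+RDN replicate 2, at 0.27, and lowest in MI+RDN replicate 3, at -0.50. MI replicates 1 and 3 stood at 0.19 and 0.21, and MI replicate 3 held the highest level of 5 of the 9 genes. The part of these genes in the cell cycle values was not tested. Of these 9 genes 3 had log2 fold changes above 0 and 6 below. DESeq2 called 3 of the 9 and limma-voom 0, and 4 had an unadjusted edgeR p under 0.05. The shares of all genes were 8.02% by DESeq2 and 19.9% at the unadjusted p. Kit, the stem cell factor receptor, fell from 44.4 ± 5.85 to 26.9 ± 1.98 CPM (SD, n = 3, log2 fold change -0.73, edgeR adjusted p = 0.0462). It was the 1 gene of the 9 that passed by edgeR, against 1.01% of all genes. The call was lost with any 1 library left out (edgeR adjusted p from 0.0603 to 0.149), without a filter (0.0900), with the replicate block (0.0589) and by limma-voom (0.0507). The lowest adjusted p over the alternatives was 0.000148, by DESeq2. Plasmablast and germinal centre genes summed to 1001 to 1311 CPM in MI and 1017 to 1552 CPM in MI+RDN, with 2 of 12 highest in MI+RDN replicate 2. Of the 11 B cell and 11 T cell markers 0 were highest in that library. The same held for MI+RDN replicates 1 and 3, so the count is not particular to replicate 2.

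**Figure D5:**
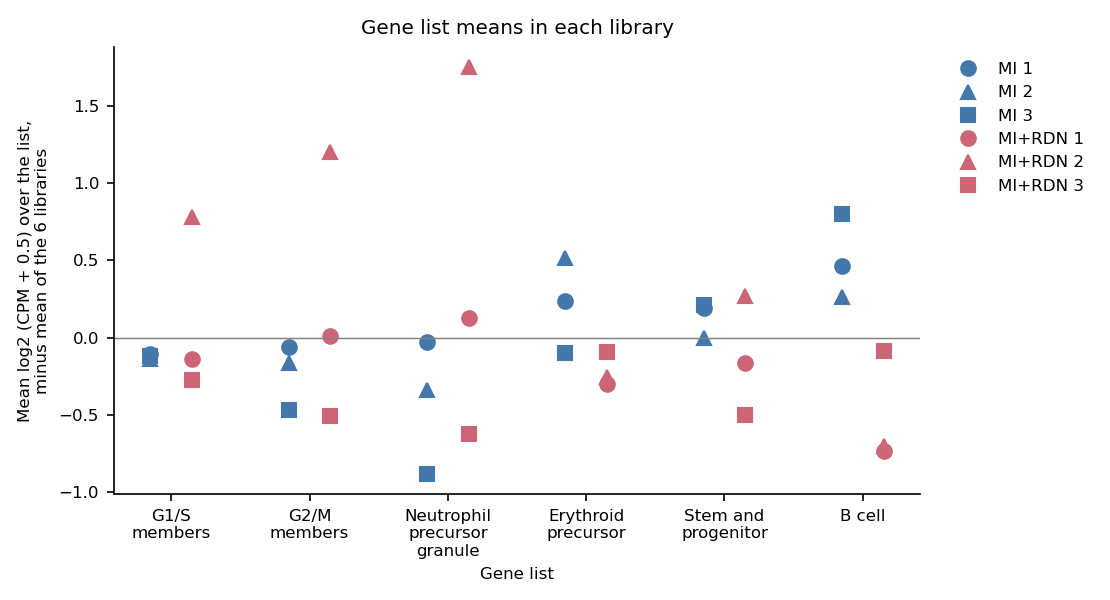
Mean over each gene list of log2 (CPM + 0.5), relative to the mean of the 6 libraries, for MI (blue) and MI+RDN (red) with 1 symbol per replicate number. MI+RDN replicate 2 stands at 0.78 for G1/S, 1.20 for G2/M and 1.75 for neutrophil precursor granule genes. For B cell markers it stands at -0.70, with MI+RDN replicate 1 lower at -0.74.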

How the data were processed

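Gene expression was measured by RNA sequencing of strand-specific libraries, per the labels' protocols. The submitters' processing notes name FastQC 0.11.2, STAR and build GRCm39, and for the counting tool, its annotation and its strand setting nothing is given among the sources used here. Raw counts were deposited by the authors per Ensembl gene, with 1 column for each library. Symbols came from a GRCm38 annotation and were matched for 55154 of 55335 IDs. The analysis ran edgeR 4.0.16 under R 4.3.3 (filterByExpr defaults, TMM, quasi-likelihood F test over 14849 genes, Benjamini-Hochberg adjustment at 0.05, all 6 libraries, no covariates). The SE was obtained by dividing the size of a log2 fold change by the root of its F statistic. Per-library means used log2 (CPM + 0.5). DESeq2 1.42.0 and limma-voom (limma 3.58.1) were alternatives. The procedure was tested on simulated counts with planted group differences and a common dispersion for all genes. No library was shifted there, so that test does not bear on the excess in MI+RDN replicate 2. Figures used Python 3.11.15 and matplotlib 3.10.9.

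The members and all gene lists were chosen with earlier results of these data known. Library values were given for members past the threshold, the 3 highest and 3 lowest log2 fold changes in each phase, and Mki67, Top2a, Ccnb1, Plk1, Ccne1, E2f1, Pcna and Mcm2. Other cell cycle lists gave up to 4 passing genes, or the 2 with the lowest p; marker lists gave their most abundant gene and the gene with the lowest p, of which those that bear on the members are printed, and Itgam. Other members are named by role with single values.

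Megakaryocyte, NK cell, dendritic cell and myeloid identity lists were also read. MI+RDN replicate 2 was highest in 0 of 7, 4 of 8, 0 of 10 and 5 of 12 of their tested genes, against 19.8% of all genes. By edgeR 0, 0, 3 and 2 of these passed, the 3 lower and the 2 higher in MI+RDN, against 0.714% lower and 0.296% higher of all genes. DESeq2 called 1, 2, 6 and 6, against 8.02%. For all 10 dendritic cell markers every MI+RDN library lay below MI, against 13.7% of all genes. Of the 15 pairs of libraries none agreed within sampling noise, with chi-square per gene from 12.2 to 120.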

Additional observations from a re-analysis of the deposited data

How the results depend on the processing

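No member passed by edgeR under any scaling, filter or left-out library. Only DESeq2's Wald test called 1 member, Cdc6 (log2 fold change 0.70). The number of all genes past the threshold was 150, and became 475 without scaling factors (413 lower and 62 higher, the all-gene median being -0.13), 21 without a filter, 1121 with DESeq2's Wald test, 290 when a mean of 5 CPM was required and 87 with the replicate number as a block. With 1 library left out it ranged from 0 to 67, and was 0 when MI replicate 3 or MI+RDN replicate 1 was dropped (edgeR, where 2084 and 2323 genes had an unadjusted p under 0.05, and no other tool was run on those libraries). Deviations from the group means correlated at 0.018, -0.065 and 0.064 across genes for replicate numbers 1, 2 and 3, and from -0.11 to 0.094 for unlike numbers. With 3 libraries per group these values cannot decide whether the numbers pair the libraries. Under the block 0 members passed, and the medians were 0.20 for G1/S and 0.48 for G2/M.

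With 1 library left out, the median of the G1/S genes ranged from -0.13 to 0.43, that of the G2/M genes from 0.018 to 0.98, and the number of members above 0 from 15 to 38, each at its lowest without MI+RDN replicate 2. The difference of the medians, 0.41 with all libraries, was 0.14 without that library. Narrow phase lists gave medians of 0.21 and 0.57.

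Some signs turned among the genes with library values. Without scaling factors, Cdt1 was -0.073, Mcm3 -0.017 and E2f1 -0.012 on the log2 scale. With the replicate block Gins2 was 0.023. With 1 library left out the log2 fold changes ranged from -0.31 to 0.98 for Ccne2, from -0.58 to 0.65 for Gins2, from -0.16 to 0.20 for Cdt1, from -0.21 to 0.27 for Mcm3, from -0.090 to 0.57 for Bub1b, from -0.18 to 0.75 for Bub1, from -0.30 to 0.86 for Nusap1, from -0.10 to 0.81 for Mki67, from -0.094 to 0.87 for Top2a, from -0.073 to 0.31 for E2f1, from -0.082 to 0.28 for Pcna and from -0.12 to 0.40 for Mcm2, each lowest without MI+RDN replicate 2. Gins2 was also above 0 without MI+RDN replicate 3 (0.082), and Cdt1 below 0 without MI replicate 2 (-0.022). The cause was not tested. Results on the other cell cycle lists, their genes and Kit were added to the alternatives after seeing the data.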

Other observations

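Values of 4 other regulators of G1, chosen after their values were seen, are given here. By edgeR 0 of them passed and 3 had an unadjusted p under 0.05, against 1.01% and 19.9% of all genes. Limma-voom called 0, against 111 of all 14849 genes. DESeq2 called Ccnd3, Myc and E2f2 (adjusted p = 0.000228, 0.00186 and 0.00682), against 8.02% of all genes. Ccnd3, a D-type cyclin, stood at 360.3, 347 and 268 CPM in MI and at 494, 546 and 504 CPM in MI+RDN (log2 fold change 0.66, edgeR adjusted p = 0.0583). Ccnd2, the remaining D-type cyclin, had a log2 fold change of 0.0080 (edgeR adjusted p = 0.985). Myc, a growth-promoting transcription factor, stood at 21.7, 20.4 and 26.8 CPM in MI and at 11.9, 14.9 and 14.5 CPM in MI+RDN (log2 fold change -0.74, edgeR adjusted p = 0.0615). E2f2, an activating E2F, stood at 142, 135 and 132 CPM in MI and at 199, 192 and 161 CPM in MI+RDN (log2 fold change 0.43, edgeR adjusted p = 0.0797). In Ccnd3, Myc and E2f2 the groups did not overlap. Over the 29 genes of their list this held for 4 upward and 4 downward, against 12.4% and 13.7% of all genes.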
